A study of Mus musculus with 16 samples.

Results

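The genes described here are 34 genes of Kupffer cells, of lipid-associated macrophages and of the monocytes and signals linked to them, measured by RNA-seq in whole mouse liver. They were taken by name from a list of such genes, and all 34 were found among the 46078 genes of the count table. All 34 also passed the filter on low counts, which left 15075 genes for testing. The list was divided by role into 7 resident Kupffer cell genes, 7 lipid-associated genes, 4 monocyte genes, 5 inflammatory signals, 8 general macrophage genes and the 3 subunits of complement C1q.

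The samples were livers of male mice of a strain written C56B6/J in the labels and C57BL6/J in the study's methods, with no transgene or deletion. From 8 weeks of age the mice were kept for 16 weeks on a control diet, CD, or on a diet with 60% of calories from fat, HFD. Livers were taken either from mice fed ad libitum (CD fed, HFD fed) or after a 16 h fast (CD fast, HFD fast), with 4 livers per group and 16 libraries in all. Libraries are named by group and by the replicate number of the labels. The comparisons ask how fasting acts in each diet, how HFD acts in each feeding state, and whether the fasting response depends on diet (the interaction).

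Kupffer cells are the macrophages that reside in the liver sinusoids, where they take up particles, dying cells and old red cells from the blood. In a fatty liver, resident cells can be lost and monocytes that enter from the blood can take their place. Some of those become lipid-associated macrophages, which are known from fat-laden tissue for genes of lipid uptake and lysosomal work. RNA from whole liver does not separate fewer cells of a type from less RNA per cell, for any value below.

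Library totals lay between 41364448 and 57583153 counts. Levels are given in CPM, the counts scaled to a common library size after TMM normalisation (which trims genes with extreme ratios), so that 3 counts stood for 0.0536 to 0.0767 CPM. Of the 544 values of the 34 genes, 3 were under 3 counts (1 each of Gpnmb, Ccl2 and Tnf), and 5 of the 34 genes averaged under 1 CPM. Per kilobase of exon, the highest mean levels were those of Lyz2 (49.0 CPM per kb), Cd5l (46.4), C1qb (41), C1qa (39.7) and Clec4f (38.2). The lowest were those of Tnf (0.139 CPM per kb), Ly6c2 (0.141) and Cx3cr1 (0.202). On that scale all 7 resident genes had higher means than every monocyte gene, Timd4 being the lowest of the resident genes at 2.69 CPM per kb and Itgam the highest of the monocyte genes at 0.369. The labelled tissue carried its defining transcripts, with summed hepatocyte markers of 80300 to 140000 CPM. The 7 neutrophil markers summed to 2.61 to 7.41 CPM, of which only Ly6g was under 3 counts in every library.

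Individual libraries stood apart before any comparison was made. HFD fast 4 held the highest level of all 16 libraries for 15 of the 34 genes, among them 5 of the 7 lipid-associated genes and all 4 monocyte genes. The same library held the lowest level of all 16 for 4 resident genes, Timd4, Vsig4, Cd163 and Folr2. HFD fed 4 was the highest of its group for 29 of the 34 genes, and CD fed 1 was the highest of its group for 30 of 34. In the other direction, CD fed 3 was the lowest of its group for 25 of the 34 genes and CD fast 1 for 21. Of all 16 libraries they held the lowest level for 5 and 12 genes. CD fast 2 was the highest of its group for 21 of the 34 genes, and HFD fast 2 the lowest of its group for 16. Calls among the 34 genes are therefore also given for fits that leave out some of these libraries. Fits that leave out HFD fed 4 and HFD fast 4 together, or CD fed 1 as well, were chosen from these values, so their calls depend on that choice. Subgroup sums, relative values and the calls of further genes and markers are given over all 16 libraries only.

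Some but not all markers of other cells were also high in HFD fed 4 and HFD fast 4. CD fast 1 held the lowest stellate (149 CPM) and sinusoidal endothelial (184 CPM) sums of all 16 libraries. The summed level of 9 stellate cell markers was 427 CPM in HFD fed 4 and 419 in HFD fast 4, against 248 to 309 CPM in the other HFD libraries. Col1a1, a fibrillar collagen gene, stood at 21.1 CPM in HFD fed 4 and 24.4 in HFD fast 4, against 1.63 to 8.43 in the other HFD libraries. The 6 bile duct markers summed to 20.6 CPM in HFD fed 4, against at most 8.05 in the 15 others, with Krt19 at 10.4 CPM. The 10 T and NK cell markers summed to 7.07 CPM in HFD fast 4, against at most 5.59 elsewhere, with Cd8a at 1.27 CPM. The endothelial sum was not high: it was 246 CPM in HFD fed 4, against 259 to 269 in the rest of its group. In HFD fast 4 it was 257 CPM, within the 228 to 297 of the others. The B and plasma cell sum was 4.17 CPM in HFD fed 4, against 1.74 to 3.92, but 3.57 in HFD fast 4, against 4.01 to 7.57. Myeloid markers were highest of their group in both libraries. The 6 dendritic cell markers summed to 13.6 CPM in HFD fed 4, against 10.3 to 11.4 in the rest of its group, and to 15.3 in HFD fast 4, against 11.1 to 13.2. The 7 neutrophil markers summed to 6.54 CPM in HFD fed 4, against 2.61 to 3.39, and to 7.41 in HFD fast 4, against 4.49 to 6.37. CD fed 1 was likewise the highest of its group, with 13.4 CPM for the dendritic and 5.34 for the neutrophil markers. Its B and plasma cell markers summed to 7.43 CPM, against 1.92 to 4.32 in the rest of its group. Its stellate sum was 316 CPM, against 242 to 268, whereas its endothelial sum, 279 CPM, lay within 263 to 294. The part of these markers in the macrophage values was not tested.

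In mice on CD, fasting lowered 6 of the 34 genes, and the test used here called none higher. A gene is called here when its adjusted p was under 0.05 in edgeR's quasi-likelihood test, over all 15075 genes. Shares of all genes called belong to that fit of all libraries unless another fit is named. They are not given for every alternative. The 6 called genes were Clec4f and Folr2 of the resident genes, Adgre1 and Csf1r of the general macrophage genes, and the C1q subunits C1qa and C1qb. Of all genes tested 11.5% were called lower and 13.7% higher (25.2% in either direction), so 6 of 34 is to be read against that share. Estimates were above 0 for 6 of the 34 genes, against 48.8% of all genes, and groups did not overlap for 5, all lower after the fast, against 12.3% of all genes lower without overlap. Estimates lay below 0 for the other 28 genes. The median log2 fold change over the 34 genes was -0.51, whereas the median over all genes was -0.01. DESeq2 called 9 of the 34, 8 lower (the same 6, Lyz2 and C1qc) and Spp1 higher (0.67, adjusted p = 0.0295, against 0.66 and 0.0568 in edgeR).

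Clec4f, a C-type lectin found on Kupffer cells and hardly elsewhere, stood at 117, 104, 92.1 and 113 CPM in CD fed and at 58.1, 90.4, 68.7 and 75.8 in CD fast libraries. The 4 fasted values all lay below the 4 fed ones, and the log2 fold change was -0.54 ± 0.18 (SE; adjusted p = 0.0369). Folr2, a folate receptor of resident macrophages, stood at 11.4, 11.5, 10.5 and 12.5 CPM in CD fed and at 4.17, 7.21, 6.32 and 5.87 in CD fast libraries. It fell by 0.96 ± 0.26 on the log2 scale (adjusted p = 0.0148), again without overlap between groups. Opposite-strand transcript Gm10602 overlaps 975 exon bases of Folr2, and the strand setting of the counting is not given in the sources used here.

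The other 5 resident genes had estimates below 0 and were not called: Cd5l, a secreted scavenger protein, at -0.56 ± 0.24 (adjusted p = 0.0992), Timd4, a receptor for dying cells, at -0.72 ± 0.44 (0.251), and Marco, a scavenger receptor, at -0.85 ± 0.76 (0.441). Vsig4, a complement receptor, had an estimate of -0.51 ± 0.32 (0.254) and Cd163, the haemoglobin scavenger receptor, one of -0.42 ± 0.56 (0.621). Marco spread most, since CD fed 1 held 67.1 CPM against 4.40 to 12 in the other CD fed libraries.

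Adgre1, the gene of the classical mouse macrophage surface antigen, stood at 42.3, 18.5, 15.3 and 20.6 CPM in CD fed and at 6.88, 13.2, 11.4 and 13.2 in CD fast libraries. Its groups did not overlap, and it fell by 1.11 ± 0.30 on the log2 scale (adjusted p = 0.0146). Without CD fed 1, the library high in Adgre1, the estimate was -0.70 and the adjusted p 0.0565.

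Csf1r, the receptor for the growth factor on which macrophages depend, stood at 85.5, 65.2, 48.8 and 67.1 CPM in CD fed and at 30.8, 57.4, 37.7 and 46.0 in CD fast libraries. It fell by 0.63 ± 0.19 (adjusted p = 0.0248), with overlap between CD fed 3 and CD fast 2, and its adjusted p was 0.0858 without CD fed 1. On HFD it stood at 50.0, 49.8, 59.8 and 65.9 CPM in fed and at 70.4, 48.3, 69.2 and 62.3 in fast libraries, again with overlap. Csf1r shares 873 exon bases with the opposite-strand gene Hmgxb3. Lyz2, which encodes lysozyme and has the near-identical copy Lyz1, stood at 133, 63.5, 50.8 and 77.7 CPM in CD fed and at 47.5, 55.9, 42.6 and 41.5 in CD fast libraries. In HFD livers Lyz2 stood at 49.9, 58.3, 44.3 and 106 CPM in fed and at 55.3, 42.7, 60.3 and 104 in fast libraries. Its groups overlapped and it was not called (-0.79 ± 0.32 for fasting in CD, adjusted p = 0.0855).

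C1qa, C1qb and C1qc encode the chains of the complement protein C1q, which liver macrophages secrete. C1qa stood at 60.4, 46.8, 36.1 and 46.6 CPM in CD fed and at 22.6, 31.9, 31.4 and 31.0 in CD fast libraries. It fell by 0.70 ± 0.19 (adjusted p = 0.0137) without overlap, and remained called without any single library (adjusted p at most 0.0491). C1qb fell by 0.56 ± 0.19 (0.0456), and C1qc, with 66.2, 50.9, 37.3 and 52.1 CPM in CD fed against 25.6, 42.0, 35.2 and 35.6 in CD fast libraries, had an estimate of -0.58 ± 0.21 (0.0538). In HFD livers C1qc stood at 40.9, 43.6, 41.7 and 68.9 CPM in fed and at 55.6, 34.2, 51.9 and 49.7 in fast libraries, with overlap. The 3 subunits thus had similar estimates on both sides of the threshold.

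**Figure D1:**
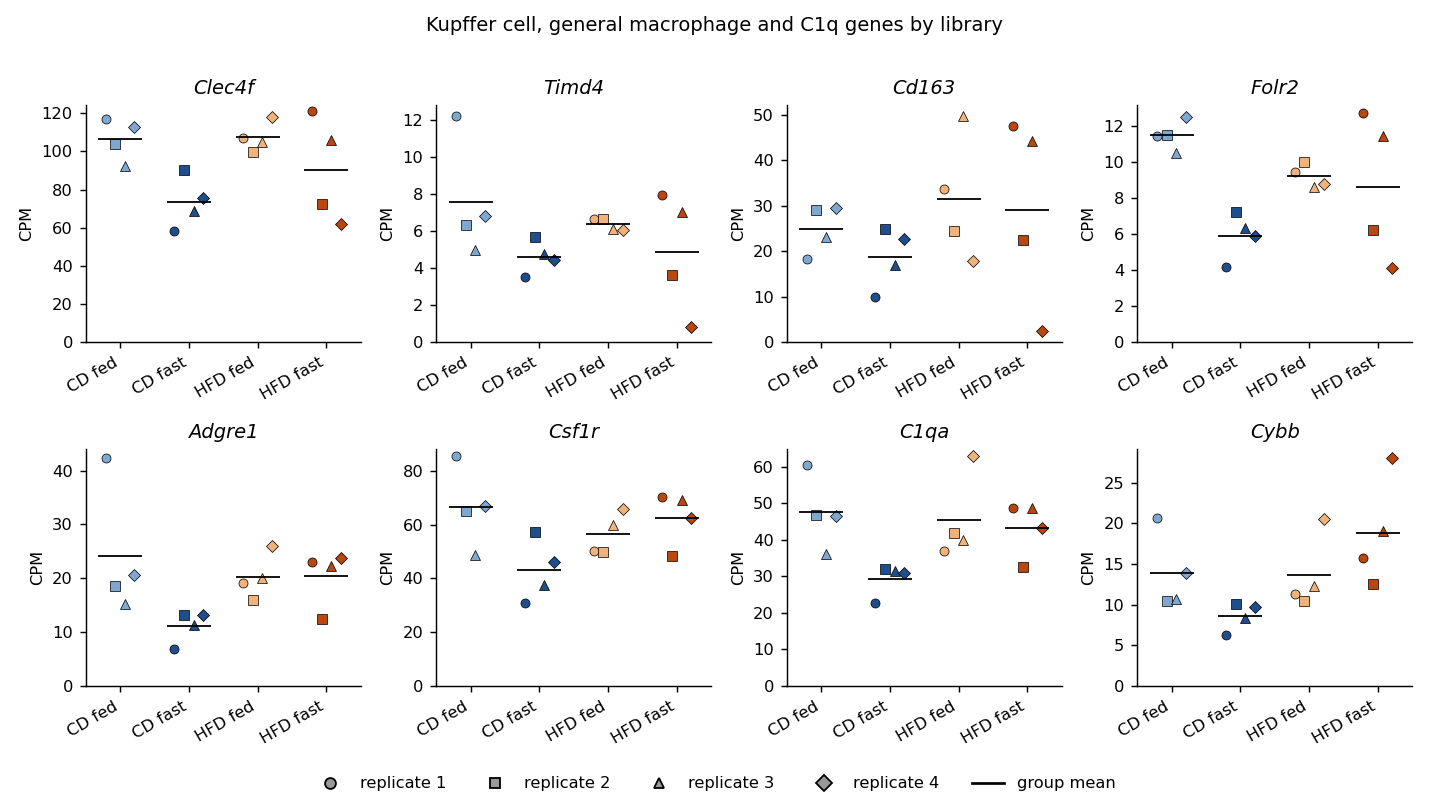
Level in CPM (vertical axes from 0) of 8 Kupffer cell, general macrophage and C1q genes in the 16 libraries, with symbol shape for the replicate number and a line at each group mean. CD fast libraries lie low for Folr2, Adgre1 and C1qa, and HFD fast 4 (diamond) lies at 0.808 CPM for Timd4 and 2.62 for Cd163.

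Without HFD fed 4 and HFD fast 4, which belong to neither group of this comparison but enter the common fit and the filter on low counts, 12 of the 34 genes were called lower, against 12.9% of all genes called lower in that fit. Without CD fed 1 in addition, 4 genes were called lower (Clec4f, Folr2, Adgre1 and C1qa), against 10.8% of all genes. Without CD fast 1, Clec4f (-0.45, adjusted p = 0.104), Csf1r (-0.50, 0.0710) and C1qb (-0.46, 0.122) were not called, whereas Folr2, Adgre1 and C1qa were called lower and Spp1 was called higher (0.81, 0.0285). Spp1 was also called higher without HFD fast 1 (0.67, 0.0365). Leaving out 1 library at a time, the count was 2 without CD fed 1, 3 without CD fast 3, 10 without HFD fed 4 and 7 without CD fed 3, the last being the 6 genes and C1qc. Clec4f and C1qb were not called in 6 and 11 of the 16 fits that each left out 1 library, and their highest adjusted p there was 0.104 and 0.139. The summed level of the 8 general macrophage genes was 222 ± 76.8 CPM in fed and 136 ± 23.2 in fasted CD livers (SD, n = 4 each), and the ranges of 152 to 331 and 112 to 167 CPM overlapped.

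Some genes of sinusoidal endothelial cells, the neighbours of Kupffer cells, fell in the same comparison. Of 7 such markers 4 were called lower and none higher, where 11.5% of all genes were called lower: Cdh5 (-0.68), Oit3 (-0.59), Pecam1 (-0.58) and Stab2 (-0.34, all log2), and the summed level was 263 to 294 CPM in CD fed and 184 to 241 in CD fast libraries. Of 9 stellate cell markers 2 were called lower, Acta2 (-1.27) and Reln (-0.61). Of 10 T and NK cell markers 8 passed the filter on low counts, all with estimates below 0, and 1 was called lower, Cd4 (-1.19), which macrophages can also express. Their summed level was 3.74 to 5.59 CPM in CD fed and 2.92 to 3.91 in CD fast libraries. Other marker lists went partly the other way. Estimates were above 0 for 5 of 7 hepatocyte markers, with 1 called higher and 1 lower. So were those of 3 of 4 bile duct and 3 of 5 B and plasma cell markers tested, none called. Of 5 adipocyte markers 1 passed the filter and was called higher (4.07), and their sum was 4.04 to 19.1 CPM in CD fed and 71.9 to 263 in CD fast libraries. The part of all these markers in the fall of macrophage genes was not tested.

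When levels were expressed relative to the mean of the 8 general macrophage genes on the log2 scale, the 7 resident genes overlapped between CD fast and CD fed. Clec4f differed by 0.04, Cd5l by 0.07, Timd4 by -0.06, Vsig4 by 0.09 and Cd163 by 0.12. Marco differed by 0.40 and Folr2 by -0.39. Adgre1, taken against the other 7, differed by -0.51 without overlap. The other genes without overlap were Spp1 (1.17), Itgam (0.80), Ccl5 (0.56) and Lgals3 (0.46). These relative values are descriptions and were not tested.

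In mice on HFD, fasting changed none of the 34 genes by edgeR's test, against 8.86% of all genes called. At an unadjusted p under 0.05 there were 5 genes (25.6% of all genes were), and DESeq2 called 1 (Cd9) and limma-voom 0. The edgeR count was 9 without HFD fed 4 and 1 without HFD fast 1 or HFD fast 4. The 8.86% does not apply to these fits. Adgre1, which fell in CD, had an estimate of 0.01 with a 95% interval from -0.62 to 0.64, and C1qa one of -0.07 (-0.47 to 0.33). Levels of C1qa were 37.0, 41.8, 39.8 and 62.9 CPM in HFD fed and 48.6, 32.5, 48.7 and 43.1 in HFD fast libraries, so that both groups covered much the same range. Adgre1 stood at 19.1, 16.0, 20.0 and 26.0 CPM in HFD fed and at 23.1, 12.4, 22.3 and 23.7 in HFD fast libraries.

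The difference between the fasting responses was tested as the interaction, and none of the 34 genes was called, against 2.59% of all genes, and 3 were without HFD fed 4. An unadjusted p under 0.05 was found for 10 genes (20.2% of all genes), DESeq2 called 2 (Cd5l and Cybb) and limma-voom 0. The estimate was above 0 for 31 of the 34 genes, against 49.8% of all genes, and the median was 0.75. Some markers of other cells lay on the same side of 0, among them all 7 sinusoidal endothelial markers (median 0.49, with Cdh5 called at 0.75). So did all 9 stellate markers (median 0.53, none called) and all 6 dendritic cell markers (median 0.48, none called). All 5 erythrocyte markers did too (median 0.58, with Alas2 called at 0.71). Of 8 T and NK cell markers tested 7 lay above 0 (median 1.0, none called). Below 0, with none called, lay 3 of 4 bile duct (median -0.701), 5 of 7 hepatocyte (-0.266) and all 3 mesothelial markers (-1.573). Their part in the macrophage values was not tested. Both fasting comparisons enter it, so a high CD fed 1 and a low CD fast 1 add to it. Ccl2 had the smallest adjusted p of the 34, with an interaction of 3.19 ± 0.94 (adjusted p = 0.0812). Adgre1 had 1.12 ± 0.42 (0.155), Csf1r 0.78 ± 0.27 (0.124) and Cd5l 1.0 ± 0.34 (0.117), none of which was called.

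Of the 7 lipid-associated genes, 3 rose with HFD averaged over feeding states, and their levels were highest in 1 library of each HFD group. The other 4 were not called, Cd9 and Spp1 having estimates below 0 (-0.30 and -0.15, log2), and none of the 7 was called in either pairwise HFD comparison. Averaged over feeding states, HFD raised 5 of the 34 genes and lowered none, against 4.98% of all genes called higher. They were Gpnmb, Mmp12 and Trem2 of the lipid-associated genes and Ccr2 and Cx3cr1 of the monocyte genes. The count was 0 without HFD fed 4, 1 without HFD fast 4 or CD fed 2, 2 without CD fed 3, CD fed 4 or CD fast 1, and 3 without CD fast 3. Limma-voom called 0 of the 34 and DESeq2 6. Among markers of other cells, 1 of 9 stellate markers was called higher (Reln, 0.49, adjusted p = 0.0210), with all 9 estimates above 0. Of 6 dendritic cell markers 1 was (Clec9a, 0.38, adjusted p = 0.0272), with 5 above 0. Below 0, with none called, lay 4 of 5 B and plasma cell, 5 of 7 hepatocyte, 2 of 3 mesothelial and 4 of 8 T and NK cell markers. Their part in these calls was not tested.

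Gpnmb, a membrane glycoprotein of lysosomes and a marker of lipid-laden macrophages, had levels of 0.729, 0.130, 0.0184 and 0.143 CPM in CD fed and of 0.236, 0.384, 0.0787 and 0.348 in CD fast libraries. In HFD fed libraries it stood at 0.212, 0.241, 0.274 and 16.7 CPM, and in HFD fast libraries at 0.672, 2.15, 2.49 and 39.7. HFD fed 4 was thus 60.9 times as high as the next library of its group, and HFD fast 4 15.9 times, whereas the other 3 HFD fed libraries lay within the range of the CD libraries. The averaged HFD effect was 4.77 ± 1.16 (log2; adjusted p = 0.0166) and was 1.35 ± 0.54 (0.135) when both libraries were left out. With CD fed 1, a library chosen for its levels of these genes, left out as well, Gpnmb (2.03 ± 0.45, 0.0158) and Ccr2 (0.96 ± 0.26, 0.0385) were the 2 of the 34 genes called higher, against 3.50% of all genes.

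Mmp12, which encodes macrophage elastase, stood at 1.08, 0.278, 0.111 and 0.232 CPM in CD fed and at 0.377, 0.332, 0.295 and 0.283 in CD fast libraries. Its HFD fed values were 0.233, 0.131, 0.526 and 14.8 CPM and its HFD fast values 0.304, 2.24, 2.56 and 19.2. The same 2 libraries were the highest, and the averaged effect of 3.72 ± 1.0 (adjusted p = 0.0250) became 0.94 ± 0.54 (0.299) without them.

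Trem2, a receptor for lipids and lipoproteins that is needed for the lipid-associated state, stood at 5.92 CPM in HFD fed 4 and 6.74 in HFD fast 4, against at most 1.97 CPM in the other HFD libraries and 0.214 to 1.02 in CD libraries. Its averaged effect was 1.89 ± 0.57 (adjusted p = 0.0419), and 0.59 ± 0.31 (0.251) without those 2 libraries. Trem2 was not called in 10 of the 16 fits that each left out 1 library, nor by limma-voom, with the replicate number as a block or with robust dispersions in edgeR. In the same 16 fits the call was lost in 1 for Gpnmb, 3 for Mmp12, 6 for Ccr2 and 7 for Cx3cr1. Itgax, an integrin of dendritic cells and of recruited macrophages, followed the same order of libraries with 4.40 and 8.74 CPM against at most 2.18 in the other HFD libraries. It was not called (1.53 ± 0.54, adjusted p = 0.0773). Lgals3, a galectin of macrophages, stood at 11.4 and 18.1 CPM in those 2 libraries and at 3.22 to 7.15 in the other HFD libraries (0.66 ± 0.29, adjusted p = 0.141).

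The start regions of Gpnmb, Mmp12, Trem2 and Itgax, chosen after their values were seen as genes high in the same libraries, are shown because each holds the AP-1 motif TGANTCA, here in capitals, the binding motif of the Fos and Jun factors. Sequences are RefSeq promoter windows on GRCm38.p6, 5′ to 3′ on the coding strand. They cover chr6:49036268-49036567 (Gpnmb), chr9:7347124-7347423 (Mmp12, the downstream of 2 windows), chr17:48346151-48346450 (Trem2) and chr7:128129300-128129599 (Itgax), all 4 on the plus strand. The AP-1 match lies at bases 9 to 15 after the start in Gpnmb and, before the start, at -44 to -38 in Mmp12, -9 to -3 in Trem2 and -56 to -50 in Itgax. The capitals of Mmp12 mark an E-box match, the first run, as well as the AP-1 match.
Gpnmb: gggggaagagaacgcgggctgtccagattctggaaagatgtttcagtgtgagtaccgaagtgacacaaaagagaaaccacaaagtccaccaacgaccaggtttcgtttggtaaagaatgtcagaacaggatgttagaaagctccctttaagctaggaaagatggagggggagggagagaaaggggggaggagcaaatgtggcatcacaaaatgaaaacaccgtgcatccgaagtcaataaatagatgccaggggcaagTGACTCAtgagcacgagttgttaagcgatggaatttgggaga
Mmp12: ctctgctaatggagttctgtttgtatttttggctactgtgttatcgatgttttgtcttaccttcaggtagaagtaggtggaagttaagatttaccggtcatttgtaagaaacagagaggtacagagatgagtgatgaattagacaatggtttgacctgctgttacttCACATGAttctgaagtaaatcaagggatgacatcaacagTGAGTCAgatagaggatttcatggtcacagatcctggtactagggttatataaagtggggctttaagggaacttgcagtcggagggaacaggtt
Trem2: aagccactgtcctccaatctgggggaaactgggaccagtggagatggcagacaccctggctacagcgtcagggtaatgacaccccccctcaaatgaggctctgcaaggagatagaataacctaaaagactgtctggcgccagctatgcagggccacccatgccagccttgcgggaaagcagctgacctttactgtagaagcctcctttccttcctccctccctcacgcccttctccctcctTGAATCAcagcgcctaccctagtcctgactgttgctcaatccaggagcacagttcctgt
Itgax: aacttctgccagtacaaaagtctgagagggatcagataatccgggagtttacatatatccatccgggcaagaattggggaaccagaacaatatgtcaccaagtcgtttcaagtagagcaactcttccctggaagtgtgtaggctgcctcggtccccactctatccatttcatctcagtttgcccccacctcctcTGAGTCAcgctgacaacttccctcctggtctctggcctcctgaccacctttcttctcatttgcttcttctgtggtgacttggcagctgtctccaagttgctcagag

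Windows of the same length were found for 26 of the 34 genes, and 7 of them (26.9%) held TGANTCA on either strand: these 4, Cd68, Cybb and Folr2. Of all 27025 genes with such windows, 8.97% did. The PU.1 motif GAGGAAGT, of the factor that directs macrophage development, was held by 4 of the 26 (15.4%; C1qc, Ly6c2, Mmp12 and Spp1), against 3.69% of all genes. The E-box TCACGTG or TCATGTG, bound by lysosomal regulators of the MiT/TFE family, was held by 4 (15.4%; C1qb, C1qc, Mmp12 and Tnf), against 8.40%. Of the 34 genes, 22 were highest of their group in both HFD fed 4 and HFD fast 4. Windows were found for 16 of these, of which 6 held TGANTCA (these 4, Cd68 and Cybb) and 10 did not (Cd5l, Cd9, Lgals3, Ccr2, Cx3cr1, Ly6c2, Itgam, Tnf, Lyz2 and Fcer1g). These are matches of letters, not measured sites.

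**Figure D2:**
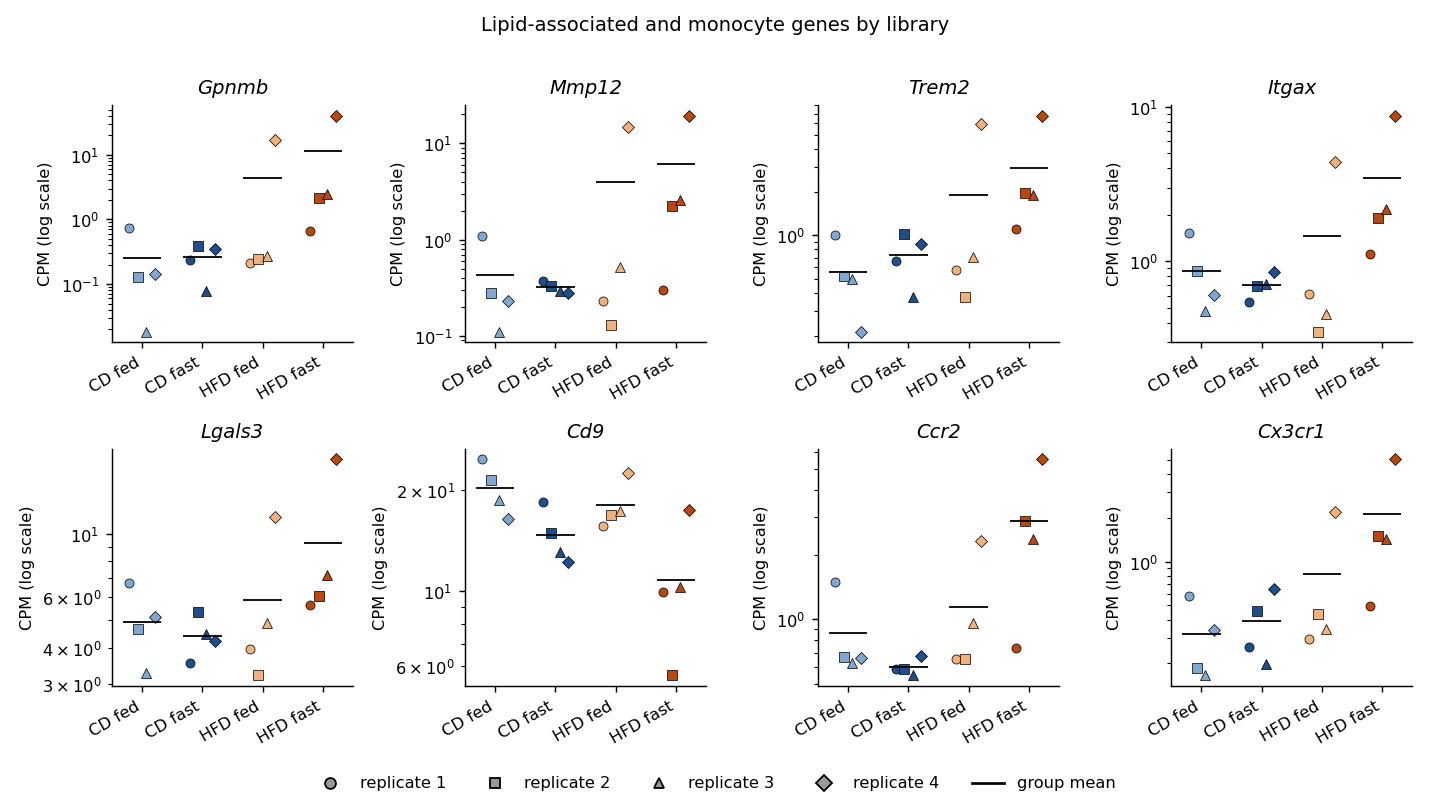
Level in CPM (log axes) of 6 lipid-associated and 2 monocyte genes in the 16 libraries, with symbol shape for the replicate number and a line at each group mean. Replicate 4 (diamond) of HFD fed and of HFD fast is the highest of its group in every panel, for Gpnmb at 16.7 and 39.7 CPM, and Spp1, the lipid-associated gene not plotted, is not highest in either (18.8 and 32.3 CPM).

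Over all 16 libraries Cd9 and Spp1 were not called with HFD. Cd9, a tetraspanin also present in bile duct and other liver cells, stood at 24.6, 21.4, 18.6 and 16.4 CPM in CD fed and at 18.4, 14.9, 13.1 and 12.2 in CD fast libraries. In HFD it stood at 15.6, 16.8, 17.3 and 22.4 CPM in fed and at 9.93, 5.64, 10.3 and 17.4 in fast libraries. Averaged over diets, fasting lowered Cd9 by 0.60 ± 0.18 (log2; adjusted p = 0.0181), and every alternative fit kept this call, the highest adjusted p being 0.0380.

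Spp1, which encodes osteopontin and is also made by bile duct cells, stood at 20.8, 21.6, 25.0 and 19.4 CPM in CD fed and at 23.5, 28.1, 28.2 and 57.5 in CD fast libraries. In HFD it stood at 19.6, 20.5, 25.3 and 18.8 CPM in fed and at 17.9, 32.7, 32.5 and 32.3 in fast libraries. Spp1 rose with fasting averaged over diets by 0.56 ± 0.17 (adjusted p = 0.0236), or by 0.37 (0.0376) without CD fast 4, its highest library, and neither HFD fed 4 nor HFD fast 4 was high. It shares 18.8% of its exon bases with the same-strand gene Gm42793, so some reads may have been assigned to either. Of the 6 bile duct markers, 4 passed the filter on low counts and none was called with fasting averaged over diets.

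With fasting averaged over diets, 5 of the 34 genes were called, 1 higher (Spp1) and 4 lower (Clec4f, Folr2, Cd9 and C1qa), against 15.2% of all genes higher and 13.6% lower (28.8% in either direction). In the same comparison 3 of 7 sinusoidal endothelial markers were called lower (Oit3 -0.37, Pecam1 -0.34 and Cdh5 -0.31, log2), with all 7 estimates below 0, as were 2 of 9 stellate markers (Acta2 -0.93 and Reln -0.34), with 8 below 0. Above 0 lay all 5 B and plasma cell and all 3 neutrophil markers tested, none called. So did 4 of 5 erythrocyte markers, with 1 called lower. The 1 adipocyte marker tested was called higher (3.07), and of 7 hepatocyte markers 1 was called higher and 3 lower. The part of all these markers was not tested. Clec4f fell by 0.40 ± 0.13 (adjusted p = 0.0285), Folr2 by 0.53 ± 0.18 (0.0424) and C1qa by 0.38 ± 0.13 (0.04). Leaving out 1 library at a time, Folr2 was not called in 11, C1qa in 7 and Clec4f in 3 of the 16 fits, with highest adjusted p of 0.0802, 0.0854 and 0.0561. The count of 5 was 2 without CD fed 1, CD fed 4 or CD fast 1, 3 without CD fed 2 or HFD fast 2, and 8 without HFD fed 4. Without HFD fed 4 and HFD fast 4, Folr2 and Cd9 were still called lower, and Trem2 (0.98 ± 0.31), Itgax (0.77 ± 0.26) and Ly6c2 (0.58 ± 0.20) were called higher, against 13.5% of all genes called lower and 15.1% higher. Spp1 was then not called (0.51 ± 0.19, adjusted p = 0.0646). These 2 libraries were chosen after their levels of these genes were seen, HFD fed 4 being the highest of its group for Trem2, Itgax and Ly6c2. The calls without them depend on that choice.

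HFD fast 4 was the lowest of its group for 6 of the 7 resident genes. Cd163 stood at 2.62 CPM in HFD fast 4 against 22.4, 44.2 and 47.4 in the other HFD fast libraries, which is 8.54 times below the lowest of them. Timd4 stood at 0.808 CPM against 3.65 to 7.94 (4.52 times below), Vsig4 at 7.37 against 18.3 to 33.2 (2.48 times below) and Folr2 at 4.14 against 12.7, 6.25 and 11.4 (1.51 times below). Clec4f was lower as well, with 121, 72.3 and 106 CPM in HFD fast 1, 2 and 3 and 62.0 in HFD fast 4, and Marco stood at 4.50 CPM against 5.01 to 24.4. Cd5l was the exception, at 138 CPM against 72.5, 133 and 137. The level of Csf1r in this library, 62.3 CPM, lay within the 48.3 to 70.4 of the others, and that of C1qa, 43.1 CPM, within 32.5 to 48.7. HFD fed 4, the other library with high Gpnmb, had Timd4 at 6.06 CPM, next to the 6.11 to 6.67 of its group, Vsig4 at 31.4 against 22.4 to 26.5, and Cd163 at 17.9 against 24.5 to 49.7. Low Timd4 and Vsig4 therefore went with high Gpnmb in 1 of the 2 libraries, as single mice and without a test.

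**Figure D3:**
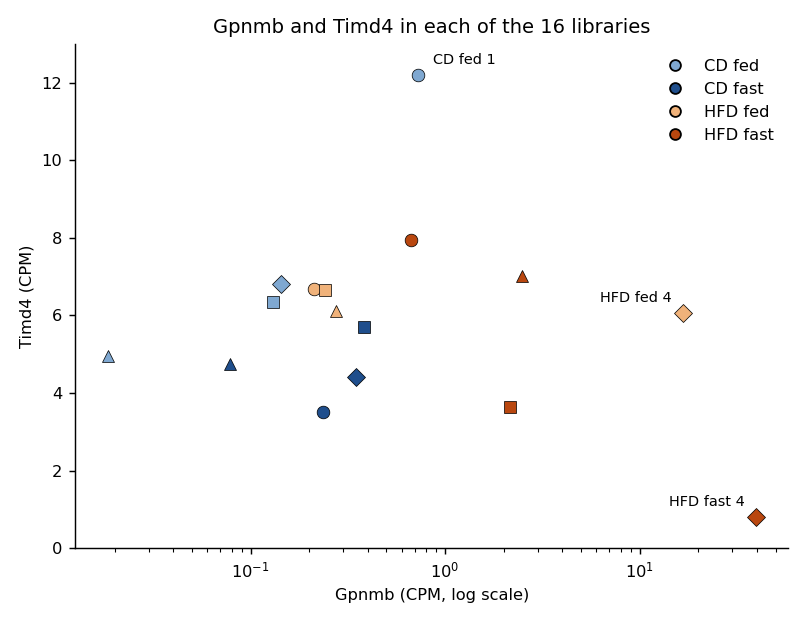
Gpnmb (horizontal, CPM, log axis) against Timd4 (vertical, CPM) in the 16 libraries, coloured by group, with symbol shape for the replicate number. HFD fast 4 lies at 39.7 and 0.808 CPM and HFD fed 4 at 16.7 and 6.06 CPM, and CD fed 1 has the highest Timd4 (12.2 CPM).

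In fed mice HFD changed none of the 34 genes by edgeR's test, against 7.50% of all genes called. At an unadjusted p under 0.05 there were 3 genes, Gpnmb, Mmp12 and Trem2 (22.9% of all genes were), and DESeq2 and limma-voom called 0. Their log2 estimates were 4.09 ± 1.61 for Gpnmb (adjusted p = 0.136), 3.21 ± 1.37 for Mmp12 (0.171) and 1.77 ± 0.81 for Trem2 (0.205), each resting on HFD fed 4. The other HFD fed libraries held 0.212 to 0.274, 0.131 to 0.526 and 0.372 to 0.709 CPM of these genes, within the CD fed ranges. Ccl2 was called lower without HFD fed 4 (-2.61, adjusted p = 0.0303). For the resident genes the estimates were between -0.82 (Marco) and 0.33 (Cd163), and Clec4f had 0.01 with a 95% interval from -0.37 to 0.39. Clec4f stood at 107, 99.8, 105 and 118 CPM in HFD fed libraries. Folr2 stood at 9.44, 9.98, 8.60 and 8.79 CPM, all 4 below the CD fed values (-0.32 ± 0.26, adjusted p = 0.507), which was 1 of 34 genes without overlap, against 15.7% of all genes.

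In fasted mice HFD raised Ccr2 and Cybb and lowered none of the 34 genes, against 3.05% of all genes called higher (7.70% in either direction). DESeq2 called 10 of the 34, total count scaling in edgeR 10, limma-voom 1 and a fit of the groups compared alone 0. The 3.05% does not apply to these fits, and total count scaling moves every log2 fold change here by 0.158. Estimates were above 0 for 29 of the 34 genes, against 52.0% of all genes, and the median was 0.60. Groups did not overlap for 9 of the 34 genes, all higher in HFD, against 6.55% of all genes higher without overlap: Gpnmb, Trem2, Lgals3, Itgax, Ccr2, Ly6c2, Cd68, Cybb and C1qa. Among markers of other cells, 3 of 7 sinusoidal endothelial markers were called higher (Cdh5 0.49, Pecam1 0.44 and Stab2 0.43, log2), with all 7 estimates above 0. Of 9 stellate markers 1 was (Reln, 0.75), with all 9 above 0. All 5 erythrocyte markers (1 called higher) and all 8 T and NK cell markers tested (none called) also lay above 0. Below 0, with none called, lay 5 of 7 hepatocyte and 2 of 3 mesothelial markers. The stellate sum was 149 to 243 CPM in CD fast and 250 to 419 in HFD fast libraries, without overlap, and the endothelial sum 184 to 241 and 228 to 297 CPM. Their part in the macrophage values was not tested. This comparison shares the CD fast libraries with that of fasting in CD, so a low CD fast group enters both. The count of 2 called genes was 0 without CD fast 1 and 1 (Ccr2) without CD fast 3 or HFD fast 3. Without HFD fast 4 neither was called (Ccr2 adjusted p = 0.0715, Cybb 0.0877), and the 1 gene called was Folr2 (0.78, 0.0480). Without CD fast 2 the genes called were Cybb and Csf1r. The count was 4 to 11 without CD fed 1, HFD fast 1, HFD fast 2 or HFD fed 4, the last being 11.

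Ccr2, the receptor through which monocytes follow Ccl2 out of the marrow and into tissue, stood at 0.589, 0.588, 0.551 and 0.674 CPM in CD fast and at 0.737, 2.85, 2.35 and 5.53 in HFD fast libraries. In fed mice it stood at 1.49, 0.667, 0.627 and 0.661 CPM on CD and at 0.656, 0.656, 0.960 and 2.31 on HFD. All 4 HFD fast values lay above all CD fast values, with a log2 fold change of 2.25 ± 0.53 (adjusted p = 0.0204). Without HFD fed 4 and HFD fast 4 it was 1.72 ± 0.40 (adjusted p = 0.0319) in a fit that called 1.73% of all genes higher. Without HFD fast 4 alone the adjusted p of Ccr2 was 0.0715, and without CD fast 1 alone it was 0.0502 (2.24 ± 0.61). Averaged over feeding states the HFD effect on Ccr2 was 1.33 ± 0.37 (adjusted p = 0.0292), and 0.76 ± 0.29 (0.113) without both libraries.

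Cybb, the catalytic subunit of the phagocyte NADPH oxidase, stood at 6.32, 10.1, 8.37 and 9.75 CPM in CD fast and at 15.8, 12.5, 19.0 and 28.1 in HFD fast libraries. In fed mice it stood at 20.6, 10.4, 10.7 and 13.9 CPM on CD and at 11.3, 10.4, 12.3 and 20.5 on HFD. The fasted groups did not overlap and Cybb rose by 1.13 ± 0.28 on the log2 scale (adjusted p = 0.0255), or 0.87 ± 0.23 (0.0464) without HFD fed 4 and HFD fast 4. Cybb was not called without HFD fast 4 alone (adjusted p = 0.0877) or without CD fast 1 alone (1.0 ± 0.30, 0.0701).

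Cx3cr1, the fractalkine receptor of monocytes, stood at 0.583, 0.185, 0.166 and 0.339 CPM in CD fed and at 0.259, 0.460, 0.197 and 0.653 in CD fast libraries. In HFD it stood at 0.296, 0.438, 0.343 and 2.19 CPM in fed and at 0.499, 1.5, 1.43 and 5.03 in fast libraries. HFD fast 2, 3 and 4 lay above every CD fast library and HFD fast 1 did not. The averaged HFD effect on Cx3cr1 was 1.90 ± 0.53 (adjusted p = 0.0308), and 0.85 ± 0.36 (0.149) without HFD fed 4 and HFD fast 4.

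Itgam, the integrin of myeloid cells with the highest level of the monocyte genes, stood at 2.57, 1.22, 0.958 and 1.66 CPM in CD fed and at 2.29, 2.10, 1.54 and 1.22 in CD fast libraries. On HFD it stood at 1.63, 1.47, 0.915 and 2.96 CPM in fed and at 1.78, 1.47, 2.77 and 3.15 in fast libraries. All 4 groups overlapped, and Itgam was not called in any comparison. Its values are uncertain, as 68.7% of its exon bases are shared with the same-strand gene Gm49368. Ly6c2, an antigen of inflammatory monocytes with the near-identical copy Ly6c1, stood at 0.217 to 0.413 CPM in CD fast and at 0.498 to 0.787 in HFD fast libraries (0.87 ± 0.33, adjusted p = 0.114).

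When HFD fed 4 and HFD fast 4 were left out, the remaining HFD livers gave other calls. These 2 libraries were chosen after their levels of these genes were seen, and the calls below depend on that choice. With fasting in HFD, Gpnmb (2.86 ± 0.76, adjusted p = 0.0396), Itgax (1.86 ± 0.40, 0.0168), Ly6c2 (1.11 ± 0.30, 0.0434) and Ccl2 (2.47 ± 0.62, 0.0310) were called higher and Cd9 (-0.94 ± 0.21, 0.0205) lower. In that fit 4.04% of all genes were called higher and 2.78% lower. With HFD in fasted mice, Gpnmb (2.78 ± 0.69, 0.0390), Folr2 (0.78 ± 0.21, 0.0499), Ccr2 and Cybb were called higher and Cd9 (-0.76 ± 0.20, 0.0484) lower, against 1.73% and 2.53% of all genes. With HFD averaged over feeding states, Cd163 (0.78 ± 0.23, 0.0451) was called higher and Cd9 (-0.53 ± 0.14, 0.0314) lower, against 4.27% and 5.58% of all genes. The 3 HFD fast livers left held Gpnmb at 0.672, 2.15 and 2.49 CPM and the 3 HFD fed livers at 0.212, 0.241 and 0.274, with no overlap. That lack of overlap decides nothing, since HFD fed 4, with 16.7 CPM, had been left out. Ccl2 was also called in the interaction (4.05 ± 0.78, adjusted p = 0.0271), where 0.893% of all genes were called higher, and in HFD in fed mice (-2.61 ± 0.59, 0.0184), where 3.88% were called lower.

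Ccl2, the chemokine ligand of Ccr2, stood at 1.15, 0.426, 0.534 and 0.786 CPM in CD fed and at 0.448, 0.102, 0.236 and 0.174 in CD fast libraries. In HFD it stood at 0.169, 0.131, 0.0457 and 0.790 CPM in fed and at 0.282, 0.725, 0.964 and 1.60 in fast libraries. Values were lower with fasting in most CD livers and higher with fasting in most HFD livers. Over all 16 libraries the estimates were -1.58 ± 0.68 for CD (adjusted p = 0.0996) and 1.61 ± 0.65 for HFD (0.134), and neither was called. Fasting in CD was called lower without HFD fed 4 and HFD fast 4 (-1.58, 0.0249), without HFD fed 4 alone (0.0397) and in the fit of the groups compared alone (0.0319), but not without CD fed 1 as well as both HFD libraries (-1.27, 0.0752). Counts of Ccl2 ranged from 2 in HFD fed 3 to 79 in HFD fast 4.

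Il1b, the interleukin with the highest level of the inflammatory signals, stood at 1.99, 1.04, 1.73 and 7.84 CPM in CD fed and at 1.39, 1.10, 3.21 and 2.33 in CD fast libraries. In HFD it stood at 1.46, 2.65, 1.21 and 2.63 CPM in fed and at 1.89, 1.16, 0.985 and 1.66 in fast libraries. It was not called, and CD fed 4, not CD fed 1, was its high library. The other 3 signals were not called either. Ccl5, a chemokine that T and NK cells also make, stood at 3.51 CPM in HFD fast 4, the library high in T and NK cell markers, and at most at 1.05 in the 15 others. Tnf, an inflammatory cytokine, ranged from 0.0457 to 0.485 CPM, and Tlr4, the endotoxin receptor, from 0.778 to 2.48 CPM over the 16 libraries.

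Over the 16 libraries C1qb ranged from 27 to 68.6 CPM, Cd68 from 5.52 to 19.5, Cd14 from 1.82 to 4.66, Tyrobp from 7.83 to 20.2 and Fcer1g from 5.19 to 11. Of the general macrophage genes not yet given, Cd68, a lysosomal glycoprotein, had an estimate of 0.90 ± 0.27 for HFD in fasted mice without overlap (adjusted p = 0.0516). Tyrobp and Fcer1g, adaptors of activating receptors, had 0.55 ± 0.24 (0.159) and 0.45 ± 0.21 (0.181) there. Cd14, the co-receptor for endotoxin, had an estimate near 0 (adjusted p = 0.994) and was the one general macrophage gene whose level relative to the other 7 was lower in HFD fast than in CD fast livers without overlap, by 0.68 on the log2 scale. Cd68 and Cybb were higher on that relative scale, by 0.32 and 0.55, both without overlap.

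**Figure D4:**
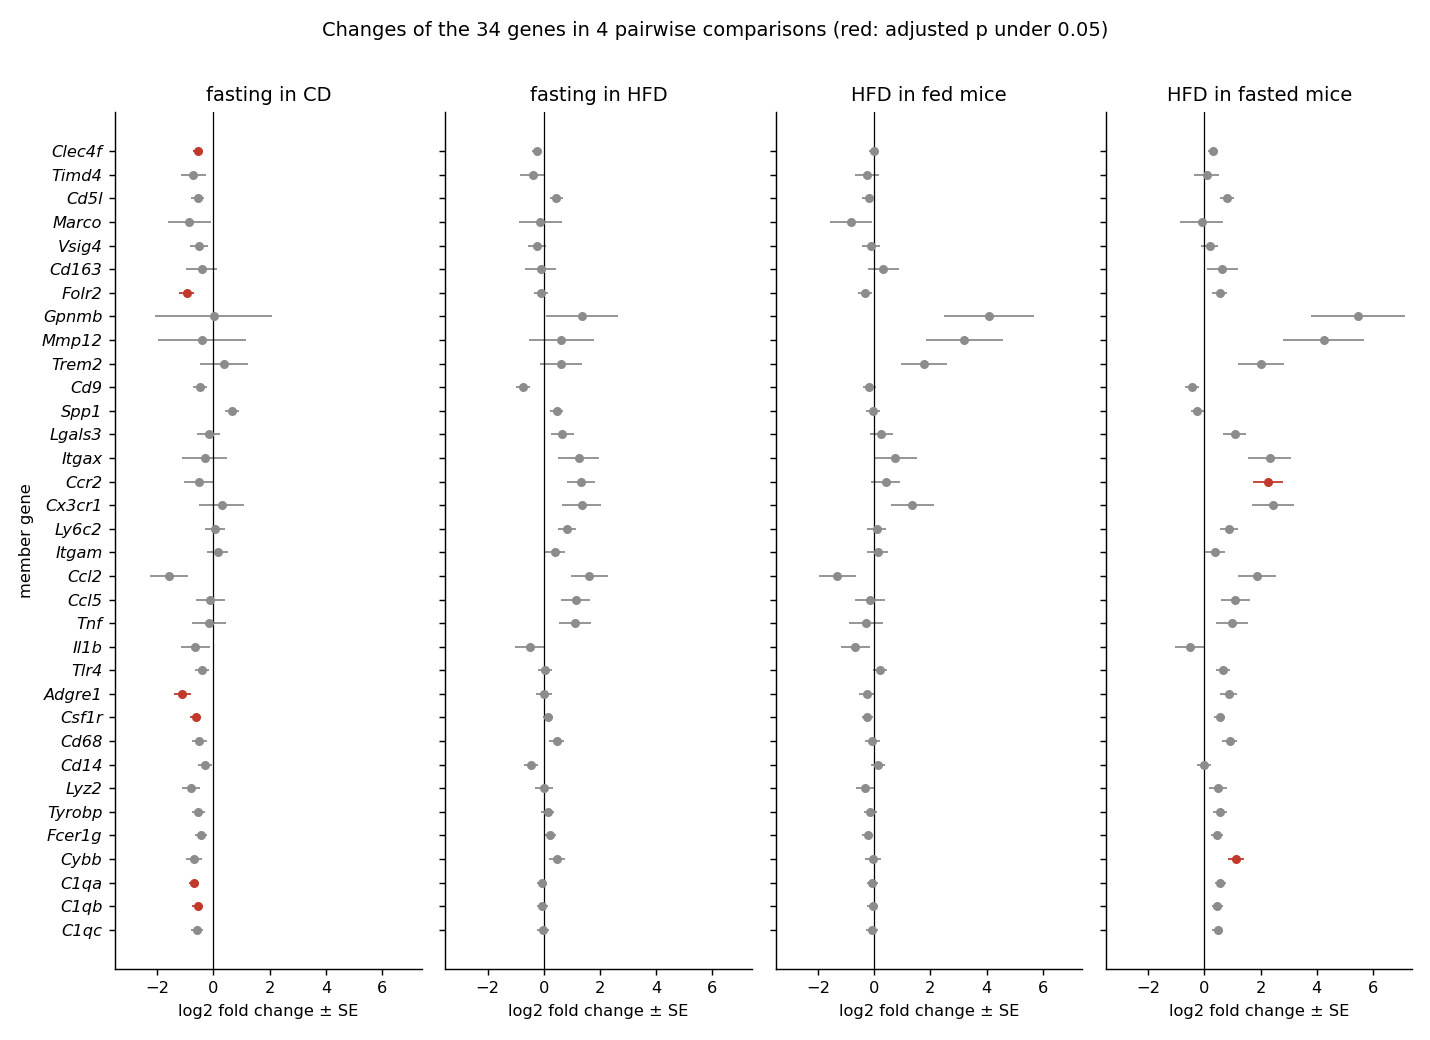
Log2 fold changes (horizontal axes) with standard errors of the 34 genes in the 4 pairwise comparisons, red where the adjusted p was under 0.05. Red points are 6 genes for fasting in CD, all lower, and Ccr2 and Cybb for HFD in fasted mice, and error bars are longest for Gpnmb and Mmp12.

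Summed over each subgroup, the resident genes reached 303 ± 76.6 CPM in fed and 204 ± 42.3 in fasted mice on CD, and 282 ± 37.0 and 288 ± 90.3 on HFD (SD, n = 4 each). The lipid-associated genes, of which Spp1 and Cd9 make up much of the sum, reached 48.9 ± 5.88, 55.4 ± 14.0, 56.6 ± 25.5 and 72.7 ± 47.3 CPM in the same order. The monocyte genes reached 3.09 ± 1.34, 3.10 ± 0.47, 4.03 ± 2.69 and 7.86 ± 4.68 CPM. In every subgroup the ranges of the groups compared overlapped, in each of the 4 pairwise comparisons. With library totals in place of TMM scaling they did not overlap for the C1q genes with fasting in CD and for the monocyte genes with HFD in fasted mice.

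**Figure D5:**
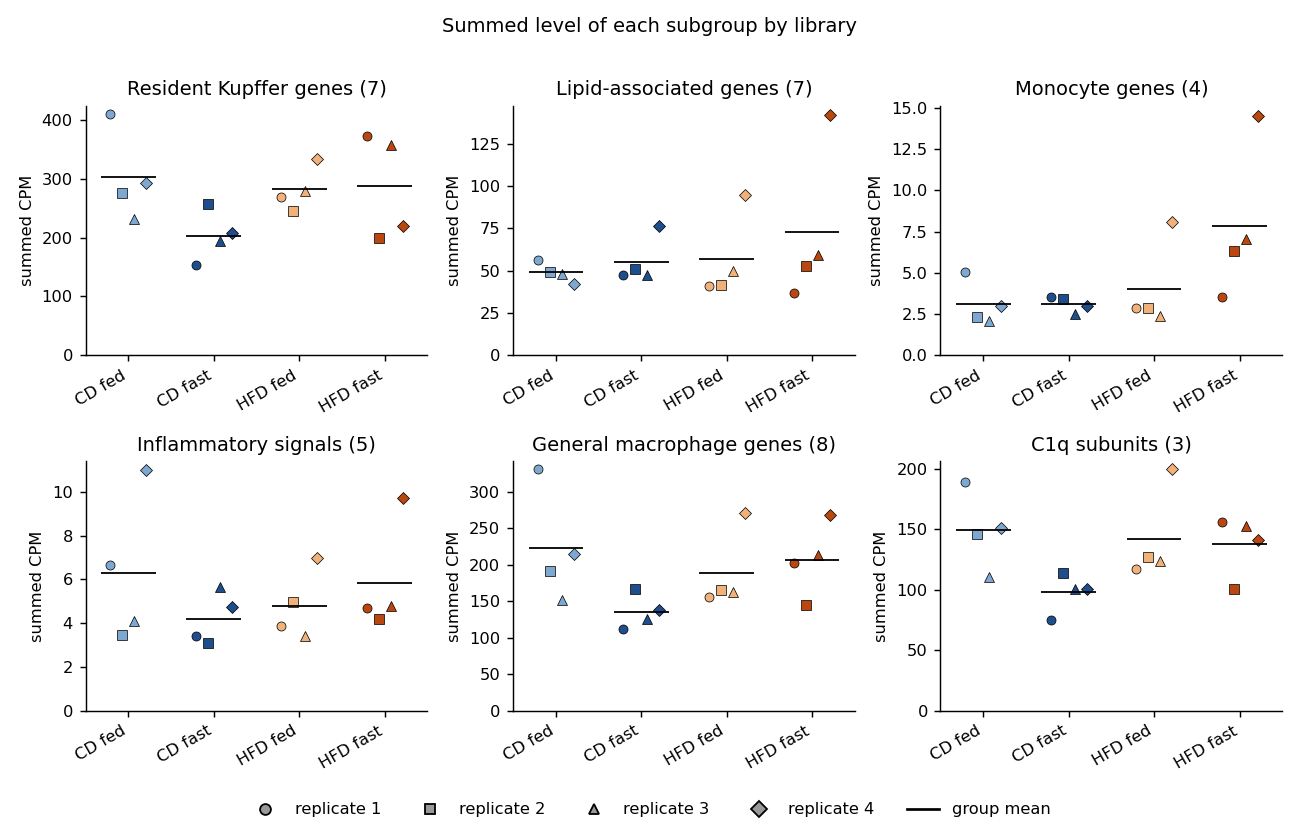
Summed CPM (vertical axes from 0) of the 6 subgroups of genes in the 16 libraries, with symbol shape for the replicate number and a line at each group mean. The lipid-associated sum is 94.4 CPM in HFD fed 4 and 142 in HFD fast 4, and the C1q sum is lowest in CD fast 1 at 75.2 CPM.

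Further genes of the same cells, from lists that do not overlap with the 34, were described in the same way. Shares of all genes called, given above, apply to these counts too. Of 10 other Kupffer cell genes 2 were called lower with fasting in CD, where 11.5% of all genes were called lower, Mrc1 (-0.72 ± 0.13, adjusted p = 0.000982), the mannose receptor, and Slc40a1 (-0.57 ± 0.17, 0.0225), the iron exporter, and none higher. With HFD in fasted mice 3 were called higher, against 3.05% of all genes, Siglec1 (1.01 ± 0.24, 0.0199), Axl (0.90 ± 0.24, 0.0329) and Mrc1 (0.58 ± 0.13, 0.0145). In both of these comparisons the endothelial markers Cdh5, Pecam1 and Stab2 were called in the same direction as Mrc1. The part of other liver cells in the values of these 10 genes was not tested. HFD in fed mice lowered Id3, a regulator of Kupffer cell identity that other liver cells also express (-1.20 ± 0.28, 0.0166). With HFD averaged over feeding states 4 of the 10 were called higher and Id3 lower (-0.93 ± 0.19, 0.00680), against 4.98% and 7.02% of all genes. The 4 were Siglec1 (0.55 ± 0.17, 0.0421), Axl (0.54 ± 0.17, 0.0494), Clec1b (0.37 ± 0.11, 0.0341) and Mertk (0.32 ± 0.10, 0.0485). With fasting averaged over diets, Slc40a1 (-0.50 ± 0.12, 0.00603) and Mrc1 (-0.42 ± 0.09, 0.00294) were called lower. Of 12 other general macrophage genes, Mpeg1 and Fcgr1 were called lower with fasting in CD (-0.77 and -0.75, log2) and higher with HFD in fasted mice (1.22 and 0.89), 2 of 12 genes each time. Mpeg1, a pore-forming protein of phagocytes, was also called in the interaction (1.40 ± 0.32, 0.0319) and with HFD averaged over feeding states (0.52 ± 0.16, 0.0448).

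Of 13 other lipid-associated genes 3 were called higher and 1 lower with fasting in CD, against 13.7% and 11.5% of all genes. These were Cd36 (1.26 ± 0.31, adjusted p = 0.00792), Plin2 (1.14 ± 0.21, 0.00123), Ctsl (0.48 ± 0.16, 0.0373) and Fabp5 (-3.47 ± 0.49, 0.000168). They handle fatty acids, lipid droplets and lysosomal breakdown, and hepatocytes express some of them as well. With fasting in HFD, Plin2 (0.86 ± 0.21, 0.0200) and Lipa (0.56 ± 0.12, 0.0105) were called higher. With HFD in fed mice, Fabp5 (-3.26 ± 0.48, 0.00125) and Lipa (-0.50 ± 0.12, 0.0187) were called lower and Cd36 (1.18 ± 0.31, 0.0308) higher. With HFD averaged over feeding states, 1 of the 13 was called higher, Cd36 (0.98 ± 0.22, 0.00933), and 3 lower, Fabp5 (-1.51 ± 0.33, 0.00845), Ctsl (-0.43 ± 0.11, 0.0231) and Lipa (-0.36 ± 0.08, 0.0117), against 4.98% and 7.02% of all genes, and their median was 0.01. Ctsl was called lower with HFD in fasted mice (-0.56 ± 0.16, 0.0427), and Fabp5 was called in the interaction (3.49 ± 0.66, 0.0164). With fasting averaged over diets 4 were called higher and Fabp5 (-1.72 ± 0.33, 0.00132) lower, the 2 largest rises being those of Cd36 (1.07 ± 0.22, 0.00203) and Plin2 (1.0 ± 0.15, 0.000173).

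Of 15 other monocyte and inflammatory genes 11 passed the filter on low counts. The chemokine genes Ccl9 (-0.87 ± 0.29 with fasting in CD, adjusted p = 0.0384), Cxcl10 (1.40 ± 0.39 with fasting in HFD, 0.0374) and Ccl6 (0.88 ± 0.24 with HFD in fed mice, 0.0347) were called, 1 in each of those comparisons, where 25.2%, 8.86% and 7.50% of all genes were called. Ccl6 was also called with HFD averaged over feeding states (0.69 ± 0.17, 0.0161) and Ccl9 with fasting averaged over diets (-0.58 ± 0.20, 0.0459). None of the 11 was called with HFD in fasted mice by edgeR's test, and 7 had an unadjusted p under 0.05, as did 25.9% of all genes.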

How the data were processed

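RNA was extracted from flash frozen mouse livers, and poly(A) libraries were sequenced in pairs. Per the labels and methods, the authors aligned reads to Ensembl GRCm38 with TopHat2 2.0.11 for first-strand libraries and deposited featureCounts read counts per gene, 1 table for the 16 libraries. The annotation release and the strand setting of the counting are not given in the sources used here. The table held 46078 genes, of which 45143 had a symbol, and 0 columns were left unused.

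From these counts, genes were kept by filterByExpr, library sizes were scaled by TMM (factors 0.929 to 1.13), and 7 contrasts were tested with edgeR's quasi-likelihood test (edgeR 4.0.16, R 4.3.3) in 1 fit of 4 groups with 12 residual degrees of freedom. Adjusted p-values are Benjamini-Hochberg values over all 15075 genes, and the standard error is the log2 fold change divided by the root of F. In counts simulated for fasting in CD (14913 genes) the test recovered 73.1% of genes changed 2-fold and 22.4% of those changed 1.5-fold. DESeq2 1.42.0, limma-voom (limma 3.58.1), other scalings, filters and left-out libraries were tried as alternatives.

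The 34 genes, their subgroups and the further lists were chosen with earlier results of these data known. Every library is printed for the 12 genes with the smallest adjusted p and for the first and the highest gene of each subgroup, others by range or estimate. Further genes named are the called genes of each further macrophage list with the largest change, by rule up to 3 per comparison. Genes beyond the 3 (Stab2, Ctsl, Lipa, Clec1b and Mertk) and the markers of other cells that are named as called were added after their values were seen. Where nothing says that livers came from separate cages or days, p-values measure only the spread between these samples. Floors of 3 counts and intervals of levels cover counting error only. Promoter sequences came from RefSeq.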

Additional observations from a re-analysis of the deposited data

Results flagged for a closer look

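Within groups of 4 libraries, the highest or lowest library was compared with its neighbour by Dixon's test for each of the 34 genes. It stood apart in 28 of 136 gene and group pairs (20.6%), and in 6.47% of such pairs over all 15075 genes tested. Chance flags about 1 in 20 groups of independent normal values, whereas these genes are on the CPM scale and share libraries. HFD fed 4 gave 11 of the 28 and HFD fast 4 gave 7.

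HFD fed 4 was the high library of its group for Gpnmb (16.7 CPM against 0.274 in the next), Mmp12 (14.8 against 0.526), Trem2 (5.92 against 0.709) and Itgax (4.40 against 0.614). It was also high for Cx3cr1 (2.19 against 0.438), Ccl2 (0.790 against 0.169), Cd14 (4.66 against 2.86) and Tyrobp (20.2 against 11.4). The same held for Fcer1g (10.7 against 6.21), C1qb (68.6 against 42.9) and C1qc (68.9 against 43.6).

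HFD fast 4 was the high library of its group for Gpnmb (39.7 CPM against 2.49), Mmp12 (19.2 against 2.56), Trem2 (6.74 against 1.97) and Lgals3 (18.1 against 7.15). It was also high for Itgax (8.74 against 2.18), Ly6c2 (0.787 against 0.545) and Ccl5 (3.51 against 0.770).

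CD fed 1 stood high for Marco (67.1 CPM against 12), Ccr2 (1.49 against 0.667) and Tnf (0.437 against 0.148). Il1b was high in CD fed 4 (7.84 against 1.99) and Spp1 in CD fast 4 (57.5 against 28.2). CD fast 1 was low for Tyrobp (7.83 CPM against 10.2) and C1qa (22.6 against 31.0). HFD fast 1 was low for Spp1 (17.9 against 32.3), and HFD fast 2 for Cd5l (72.5 against 133) and Adgre1 (12.4 against 22.3).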

How the results depend on the processing

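Of 18 single-gene calls, 493 values under alternatives were computed: 381 kept direction and side of the threshold, 112 kept direction but not the threshold, and 0 reversed. Folr2 and C1qa with fasting in CD and Cd9 and Spp1 with fasting averaged over diets were called in every fit that left out 1 library. The counts of genes called were 6 for fasting in CD, 0 for fasting in HFD, 0 for HFD in fed mice, 2 for HFD in fasted mice, 0 for the interaction, 5 for HFD averaged and 5 for fasting averaged. Without 1 library each they ranged from 2 to 10, 0 to 9, 0 to 1, 0 to 11, 0 to 3, 0 to 6 and 2 to 8 in the same order, the upper ends except that of HFD averaged, and its lower end, being fits without HFD fed 4. At an adjusted p under 0.01 the counts were 0 for fasting in CD, HFD in fasted mice, HFD averaged and fasting averaged.

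In alternatives chosen after seeing the data, leaving out HFD fed 4 and HFD fast 4 gave 12 for fasting in CD, 5 for fasting in HFD, 1 for HFD in fed mice, 5 for HFD in fasted mice, 1 for the interaction and 2 for HFD averaged. Without CD fed 1 as well, a library chosen for its levels of these genes, the counts were 9 for fasting in HFD, 1 for HFD in fed mice, 8 for HFD in fasted mice, 1 for the interaction, 2 for HFD averaged and 8 for fasting averaged. For HFD averaged, 3.50% of all genes were called higher in that fit. Shares of all genes are not given here for the other counts of that fit. Those counts therefore cannot be read as more or fewer calls than among all genes. Robust dispersions in edgeR were the other added alternative. DESeq2 gave 1 for fasting in HFD, 10 for HFD in fasted mice and 2 for the interaction, and limma-voom gave 1 for HFD in fasted mice and 0 for HFD averaged. For HFD in fasted mice, total count scaling gave 10 (it moves every log2 fold change there by 0.158), a filter of 1 CPM gave 4, and fitting the groups compared alone gave 0. The causes were not tested. Each replicate number had pairs of libraries whose deviations from their group means were negatively correlated (lowest -0.243 to -0.093), the highest correlation being 0.662 for number 4 and 0.11 to 0.206 for the others, and 5 of 16 libraries were nearest to their own number. The numbers were not taken as pairs. With the replicate block 2 genes were called for HFD averaged and 3 for fasting averaged, and Clec4f (adjusted p = 0.0616) and C1qb (0.0586) were not called for fasting in CD. Ccl2 and Tnf each held a library with 2 counts, under the floor of 3.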
